A study of Mus musculus with 24 samples.

Results

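Hearts of mice with a mutated human cardiac myosin light chain transgene, treated with a silencing virus, were compared with hearts of mice with the normal human transgene. The comparison set 4 mutant hearts labelled shRNA (replicates 5, 6, 7 and 8) against 3 wild-type hearts that received control virus (replicates 2, 3 and 4), which is 7 of the 13 polyA RNA libraries of the series. Genes entered where FPKM (fragments per kilobase of transcript, scaled to the mapped fragments of the library) averaged 1 or more over the 13 libraries, which left 12980 of 23998 listed genes. Each gene was asked whether its level differed from wild type after treatment, and for genes that differed in the mutant with control virus, whether that difference stayed, was gone or had turned to the other side.

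All mice were of the CD1 background. Wild-type mice carried the normal human MYL2 allele and mutant mice the mutated human MYL2 allele, as the sample names and the design text give it, since the genotype label reads the same for every sample. The sources used here do not give the promoter that drives the transgene. The shared genotype label names a single line, so effects of the transgene's insertion site cannot be told apart from those of the allele. The silencing virus was AAV9 (adeno-associated virus serotype 9) with an H1-driven hairpin named M7.8L and a Cerulean fluorescent reporter behind the RSV promoter, and the control virus was AAV9 without that hairpin. Mice were injected through the jugular vein when 3 days old, and the hearts were collected at 4 months. Reference groups were 3 mutant hearts with control virus (replicates 1, 2 and 3) and 3 untreated mutant hearts (replicates 9, 10 and 11). The labels number the hearts but name no litters or batches, so p-values measure the spread between these hearts.

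MYL2 encodes the ventricular regulatory light chain, a small subunit that wraps the neck of the myosin head and tunes how the head works on actin. Mutations in it cause inherited cardiomyopathy. Hearts under such stress commonly return to fetal genes such as the natriuretic peptides, lay down collagen and lower the genes of fatty acid oxidation and mitochondrial respiration. An allele-selective hairpin is meant to lower the mutant transcript and spare the normal one, and an H1-driven hairpin also passes through the cell's own small RNA machinery.

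The library labelled shRNA replicate 8 stood apart from shRNA replicates 5 to 7. Over the genes tested, its aligned log2 levels had a Pearson correlation of 0.965 to 0.979 with the mutant hearts without the hairpin. With shRNA replicates 5 to 7 the correlation was 0.927 to 0.928, and with wild type 0.934 to 0.946. In shRNA replicates 5, 6 and 7 a row of the table named hMyl2 held 248, 293 and 254 aligned FPKM. It was listed at 0 in replicate 8 and in the 9 libraries of the other groups. Those groups were also designed to carry a human MYL2 allele, so the row does not check the labels. What it measures was not tested, and no fold is given for it. A row named shRNA was listed at 0 in every library. Mouse Myl2 had 26025, 24181 and 27133 aligned FPKM in wild type, 28199, 36149 and 27266 in shRNA replicates 5 to 7, and 12659.7 in replicate 8, beside 12505, 13139 and 13736 in the mutant with control virus. Its 3 shRNA libraries thus lay above all wild-type libraries, by a fitted 1.18-fold that did not pass (limma adjusted p = 0.337, and 0.956 with replicate 8), while replicate 8 lay within the range of the mutant with control virus. Of the atrial markers Nppa, also a stress gene of the ventricle, had 24577 aligned FPKM in replicate 8 and 721 to 1850.2 in replicates 5 to 7. The other atrial markers (Myl4, Myl7 and Sln) summed to only 9.21 in replicate 8, 2.32 to 4.90 in replicates 5 to 7 and 4.30 to 4.93 in wild type. Counts are given with and without replicate 8, and the gene groups are described for replicates 5 to 7 with the values that include replicate 8 beside them.

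Other features of the libraries bear on all counts. FPKM carries no read counts, so the depth is unknown and no counting error can be given. Library medians differed by a log2 shift of -0.54 to 0.80, highest in replicate 8, and FPKM values were aligned on that median before any comparison. Judged by the Y-linked gene Ddx3y, shRNA replicates 5 to 7 were male and replicate 8 female, wild-type replicates 2 and 3 were male and replicate 4 female, and the mutants with control virus were all female. Treatment and sex therefore cannot be told apart between shRNA replicates 5 to 7 and the mutants with control virus. Cardiomyocyte markers (Myh6, Tnnt2, Actc1, Tnni3 and Ryr2) were abundant in every library. They summed to 59390 to 61460 aligned FPKM in shRNA replicates 5 to 7 and 39590 to 53690 in wild type, with Myh6 listed at 0 in wild-type replicate 2. In heart tissue, fewer cells of a type and less RNA per cell cannot be told apart.

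With all 4 shRNA libraries, few genes passed against wild type. Such counts depend on the spread, which all groups share in the fit. Genes that passed in the mutant with control virus were also fewer with replicate 8 in the fit (3150) than without it (5149). Few calls therefore do not show likeness to wild type. Of the 12980 genes, 11 passed at an adjusted p under 0.05 in limma, 0.0847% of those tested. They were 4 higher (0.0308%) and 7 lower (0.0539%) after treatment, and 1518 genes had an unadjusted p under 0.05. Without replicate 8, 729 genes passed, 5.62% of those tested, with 409 higher (3.15%) and 320 lower (2.47%). All 11 were among the 729. Groups did not overlap for 1494 genes (11.5%) with replicate 8 and for 3902 genes (30.1%) without it. At least a 2-fold difference was found in 134 of the 729 genes, 73 higher and 61 lower.

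The split between higher and lower genes depended on how the libraries were scaled. Without replicate 8, median alignment gave 56.1% higher among the genes that passed. FPKM as deposited gave 177 higher and 41 lower (81.2% higher) and set the median of all genes at 0.21 (log2) above wild type. Quantile normalization gave 249 higher and 301 lower, and equal FPKM totals gave 193 higher and 1468 lower, with the median of all genes at -0.16. With only male libraries of the compared groups, 214 genes passed.

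**Figure D1:**
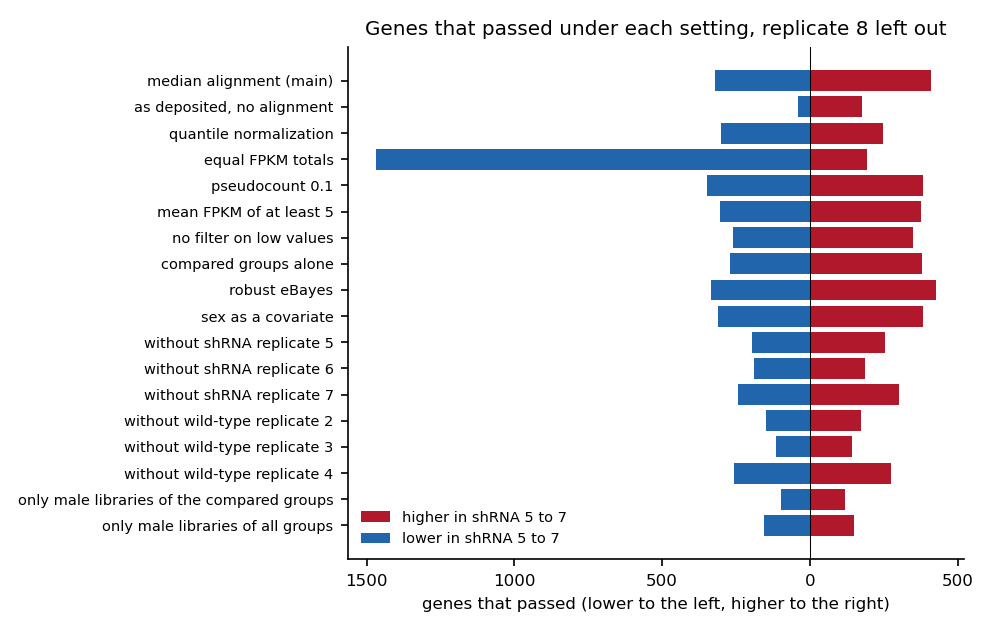
Number of genes that passed (horizontal axis) for shRNA without replicate 8 against wild type, under each setting (vertical axis). Higher genes lie to the right and lower genes to the left of 0. The balance of 409 higher and 320 lower turns to 193 and 1468 with equal FPKM totals. The fit with replicate 8 included, where only 11 genes passed, is not drawn.

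The mutant with control virus gave the difference that treatment could have changed. It differed from wild type in 3150 genes (24.3%) in the fit with all libraries. In the fit without shRNA replicate 8 it differed in 5149 genes (39.7%), 2568 higher (19.8%) and 2581 lower (19.9%). This comparison shares its 3 wild-type libraries with the shRNA comparison. Without replicate 8, 104 of the 5149 genes stayed different on the same side of wild type after treatment, 54 higher and 50 lower. Another 309 overshot, passing on the opposite side of wild type, 202 higher and 107 lower. For 3191 of the 5149 genes the 95% interval of the shRNA difference lay within 1.5-fold of wild type. A further 316 genes passed only in the shRNA comparison, 153 higher and 163 lower. With replicate 8 in the fit, 7 genes stayed different, 0 overshot in limma (beside the 1518 genes at an unadjusted p under 0.05), 4 passed only after treatment, and 1306 of 3150 lay within 1.5-fold.

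The differences were mostly small. Median fold was 1.54 for genes that overshot, 1.62 for genes that stayed and 1.55 for genes that passed only after treatment. In the mutant with control virus the same genes had median folds of 1.70, 1.56 and 1.12. Of the 104 genes that stayed, 19 also passed in the direct comparison of shRNA replicates 5 to 7 with the mutant with control virus. In that comparison treatment and sex cannot be told apart. For genes that overshot, passing it follows from how they were chosen. Since these classes were chosen with replicate 8 left out, its place in them is a description. For 305 of the 309 genes that overshot it lay within or past the wild-type range, for 4 between wild type and replicates 5 to 7, and for 0 with or beyond replicates 5 to 7. For the 104 genes that stayed these counts were 6, 34 and 64, and for the 316 that passed only after treatment 175, 112 and 29. Of the 729 genes, those with a known place lay on all autosomes and X, with a share of passed genes from 2.78% on chromosome 15 to 8.65% on chromosome 3.

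**Figure D2:**
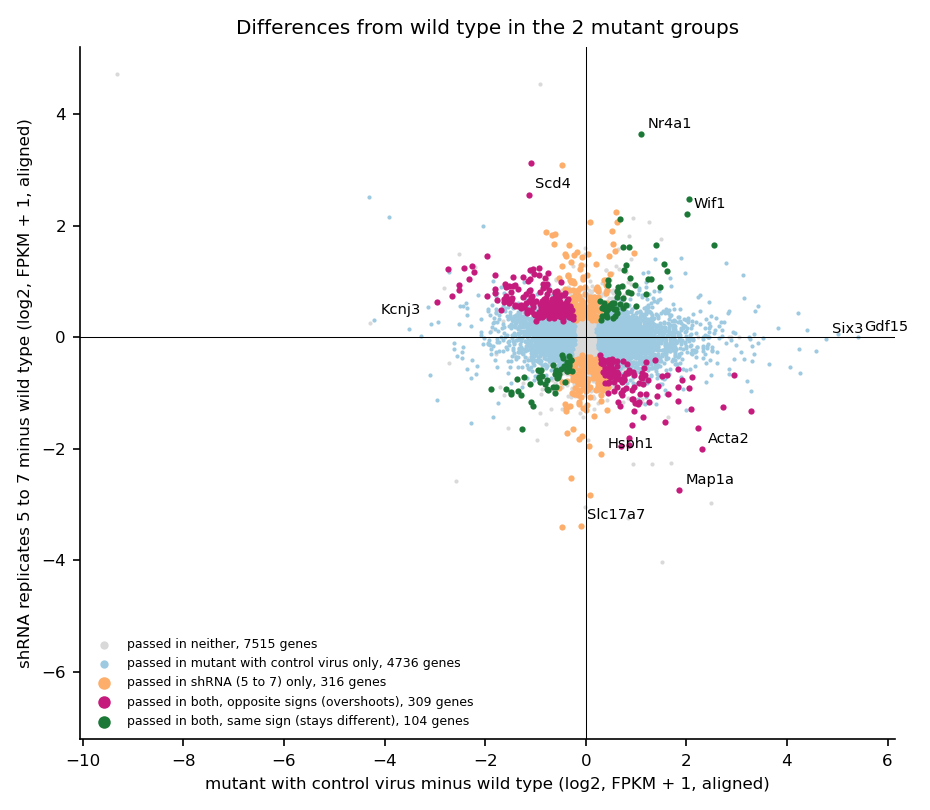
Log2 difference from wild type of the mutant with control virus (horizontal axis) and of shRNA replicates 5 to 7 (vertical axis), a point for each gene, coloured by whether the difference stayed, overshot, appeared only after treatment or was found only in the mutant; hMyl2 is not drawn. Most genes found only in the mutant spread along the horizontal axis near 0 on the vertical axis, while the 309 genes that overshot fill the opposite quadrants; both axes use the same wild-type libraries.

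**Figure D3:**
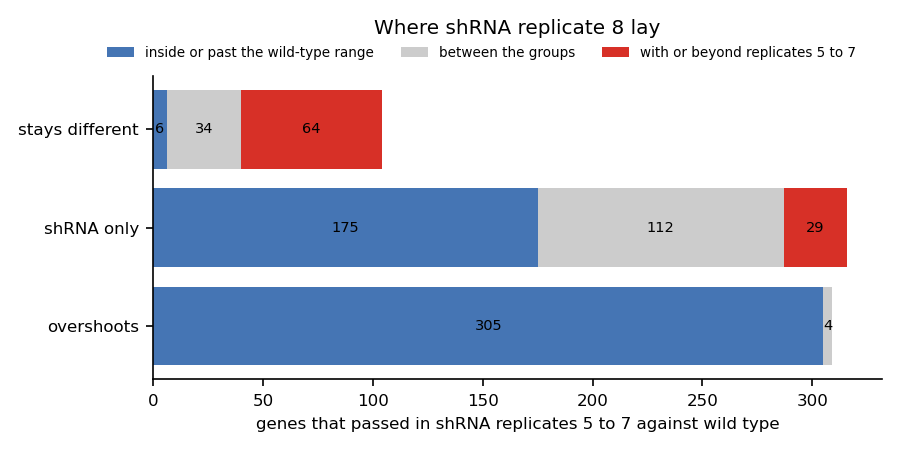
Number of genes (axis) in each class by where shRNA replicate 8 lay: with or beyond replicates 5 to 7, between them and wild type, or within or past the wild-type range. Replicate 8 shared 64 of 104 differences that stayed and 0 of 309 that overshot.

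The 11 genes that passed with all 4 libraries are those that do not depend on leaving out replicate 8. Metrn, which encodes the secreted neurotrophic factor meteorin, had 71.2, 85.4 and 71.8 aligned FPKM in wild type and 37.7, 36.2, 27.1 and 21.5 in shRNA replicates 5 to 8, beside 32.1, 36.4 and 36.6 in the mutant with control virus. All 4 treated hearts lay below wild type, with the untreated mutants (29.0, 22.7 and 35.8), by 2.49-fold (limma adjusted p = 0.0361). Slc41a3, of the SLC41 family of magnesium transporters, had 25.7, 26.2 and 38.2 in wild type, 85.3, 66.0, 71.7 and 62.0 in the treated hearts and 46.5, 45.5 and 66.7 in the mutant with control virus, and was 2.35-fold higher (adjusted p = 0.0361). The glycosyltransferase gene Mgat3 (2.11-fold lower, adjusted p = 0.0361), Ccdc91 (1.69-fold lower, 0.0363), the olfactory receptor gene Olfr78 (1.94-fold lower, 0.0363) and Tti1 (1.52-fold lower, 0.0399), whose product helps assemble mTOR and related kinases, also stayed below wild type, and Tceal8 stayed 1.93-fold above it (0.0463). These 7 are the genes that stayed different in that fit. Replicate 8 as a whole was most like the mutants without the hairpin, so its place on their side for these 7 is a description.

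The other 4 of the 11 did not pass in the mutant with control virus. Prps2, which makes the nucleotide precursor phosphoribosyl pyrophosphate, had 7.28, 5.33 and 8.38 aligned FPKM in wild type and 15.9, 23.2, 23.8 and 16.0 in the treated hearts (2.58-fold higher, adjusted p = 0.0361). Nxpe4 had 1.44, 1.78 and 0.0724 in wild type and 5.28, 6.72, 5.96 and 5.10 after treatment (3.48-fold higher, adjusted p = 0.0363), with at most 0.402 in the 6 mutant hearts without the hairpin. The adhesion gene Cdh4, or R-cadherin, had 6.90, 7.05 and 6.76 in wild type and 2.10, 2.23, 2.25 and 4.02 after treatment (2.21-fold lower, adjusted p = 0.0399). Srp54a, a subunit of the signal recognition particle, had 2.43, 2.18 and 3.54 in wild type and 0.558, 0.708, 0.672 and 0.722 after treatment (2.21-fold lower, adjusted p = 0.0361). Mice carry near-identical copies of Srp54a, and no source used here says how reads were divided among them. Treated and wild-type hearts did not overlap for any of these 4 genes, nor for 11.5% of all genes tested. The count of 11 fell to 0 in limma with the compared groups alone, where 1163 genes had an unadjusted p under 0.05.

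Several heat shock genes, 7 of the 19 on the list, were lower in shRNA replicates 5 to 7 than in wild type, and 12 did not pass. They encode chaperones that fold and refold proteins, and the factor that drives them binds heat shock elements, repeats of the unit GAA in alternating orientation. None was higher, and the median of the 19 was -0.38 on the log2 scale; 2.47% of all genes tested were lower. In the mutant with control virus 3 were higher and 4 lower (median 0.021), beside 19.8% and 19.9% of all genes tested. With replicate 8 in the fit, no member of this list or of any other list named here passed, and the heat shock median was -0.37. Among RefSeq promoter windows (300 bases, from 250 before to 50 after each gene's start, GRCm38.p6), the element (13 bases: GAA, 2 free bases, TTC, 2 free bases, GAA), searched on both strands, was found in 198 of 32851 windows (0.603%) and in 63 of 9728 tested genes with a window (0.648%). It was in 6 of 237 genes that were lower without replicate 8 (2.53%), in 0 of 295 that were higher and in 3 of 14 heat shock genes with a window (21.4%). Those were Hsph1, which passed, and Hspd1 and Hspe1, which did not and whose windows hold the same stretch of a shared promoter; of 5 heat shock genes with a window that passed lower, 1 held it. A match is a description of the letters and not of binding, and shares were not tested. The 6 lower genes with the element are printed with 8 bases on each side, element in capitals, 5′ to 3′ on the gene's strand; Eme2, Nploc4, Slc6a17 and Tmcc2 were named for holding it after their values were seen.
Hsph1 (chr5:149636280-149636308, minus strand): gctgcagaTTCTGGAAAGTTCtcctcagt
Uchl1 (chr5:66675946-66675974, plus strand): aggagggtTTCCAGAAATTTCgctccaaa
Eme2 (chr17:24895052-24895080, minus strand): tacgtccgGAAGCTTCAGGAAcgaaggac
Nploc4 (chr11:120437856-120437884, minus strand): cattgctcGAACTTTCAGGAAtatggctc
Slc6a17 (chr3:107500952-107500980, minus strand): cagtaggtTTCCAGAACCTTCtagtgatg
Tmcc2 (chr1:132367951-132367979, minus strand): atctcttgGAACCTTCTTGAActtgggac

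Hsph1, which encodes the large chaperone HSP105 and holds the element within its first transcribed bases, had 162, 272 and 187 aligned FPKM in wild type and 37.7, 49.9 and 53.7 in shRNA replicates 5 to 7. Replicate 8 had 169 and the mutant with control virus 253, 249.7 and 251. The 3 treated hearts lay below every other heart, 4.27-fold below wild type (log2 difference -2.09 ± 0.17 SE, limma adjusted p = 5.61e-05), but did not pass with replicate 8 in the fit (adjusted p = 0.12). Hspa1l, a relative of inducible HSP70 that is outside the list, had 36.8, 36.5 and 25.3 in wild type, 6.71, 7.65 and 8.80 in replicates 5 to 7 and 35.9 in replicate 8. It was 3.85-fold below wild type (adjusted p = 5.61e-05) and was 1.63-fold above it in the mutant with control virus. Hsp90aa1, the inducible HSP90, had 167, 265 and 175 in wild type, 84.9, 90.3 and 87.1 in replicates 5 to 7 and 386 in replicate 8. Its level was 2.25-fold below wild type in replicates 5 to 7 (adjusted p = 0.00276) and 2.4-fold above it in the mutant with control virus, so the direction turned. The constitutive HSP90 gene Hsp90ab1 (1.52-fold lower, adjusted p = 0.00695) and the co-chaperone gene Dnajb1 (1.72-fold lower, adjusted p = 0.0114) also fell, as did Hspb1, Hspb8 and Dnaja1, which complete the 7. With replicate 8 the adjusted p was 0.223 for Hspa1l, 0.613 for Hsp90aa1, 0.307 for Hsp90ab1 and 0.0597 for Dnajb1. Hspa1a and Hspa1b, the near-identical inducible HSP70 genes among which reads may be shared, had log2 differences of -1.26 and -1.42 that did not pass (adjusted p = 0.0759 and 0.0902). Of the 19 genes, 1 passed lower in FPKM as deposited, 7 with quantile normalization and 13 with equal FPKM totals. With each library left out 4 to 6 passed, and with the male libraries of the compared groups 2.

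Immediate early genes are transcription factors and regulators that cells switch on within minutes of a stimulus. Of 27 on the list, 8 were higher, 1 was lower and 18 did not pass in shRNA replicates 5 to 7. Their median was 0.45, and 0.55 with replicate 8, and 3.15% of all genes tested were higher. In the mutant with control virus 15 were higher and 0 lower (median 0.71), beside 19.8% and 19.9% of all genes tested. The lower gene in replicates 5 to 7 was Ier5. Nr4a1, an orphan nuclear receptor, had 7.61, 27.0 and 7.30 aligned FPKM in wild type, 29.2, 16.3 and 36.9 in the mutant with control virus and 165, 139.8 and 163 in replicates 5 to 7. Replicate 8 had 8.64, within the wild-type range. The difference of replicates 5 to 7 from wild type was 12.4-fold (log2 3.64 ± 0.40 SE, limma adjusted p = 0.000613), and with replicate 8 in the fit the adjusted p was 0.256. Nr4a1 also passed against the mutant with control virus (limma adjusted p = 0.000235), but there treatment and sex cannot be told apart. Its relative Nr4a2 was 3.76-fold higher (adjusted p = 0.00302), with 8.83, 4.09 and 3.97 against 0.381 to 1.01 in wild type. Fos, a subunit of the AP-1 factor, ranged from 8.42 to 58.7 in replicates 5 to 7 and from 1.88 to 6.24 in wild type (5.58-fold higher, adjusted p = 0.0175). That spread overlapped the mutant with control virus, where Fos was 4.14-fold above wild type. Btg2, an antiproliferative p53 target, had 20.4, 27.8 and 20.4 in wild type, 92.1, 65.0 and 61.5 in replicates 5 to 7 and 33.2 in replicate 8 (3.08-fold higher, adjusted p = 0.000613; 1.68-fold in the mutant with control virus). Atf3, a stress factor, had 22.5, 21.9 and 24.9 against 4.88 to 10.0 in wild type (3.13-fold higher, adjusted p = 0.00244), a level like the 16.8 to 20.8 of the mutant with control virus. Nr4a1, Btg2 and Atf3 passed under each of the settings run without replicate 8. With it, Nr4a2, Fos, Btg2 and Atf3 had adjusted p of 0.206, 0.259, 0.0719 and 0.077.

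Sarcomere genes moved in either direction. Of 35, 6 were higher, 3 lower and 26 did not pass in shRNA replicates 5 to 7 (median 0.024, and -0.098 with replicate 8), beside 3 higher and 13 lower in the mutant with control virus. Among all genes tested, 3.15% were higher and 2.47% lower in replicates 5 to 7, and 19.8% and 19.9% in the mutant with control virus. Tpm1 and Tpm2 encode tropomyosins, the rods that lie along actin, with Tpm1 the main heart form. Tpm1 had 8961, 9239.5 and 9833 aligned FPKM in wild type, 17041, 19323 and 15265 in replicates 5 to 7 and 8292 in replicate 8 (1.83-fold higher, limma adjusted p = 0.00144). Tpm2 had 31.3, 60.6 and 30.6 in wild type, 9.66, 10.3 and 11.4 in replicates 5 to 7 and 28.5 in replicate 8 (3.48-fold lower, adjusted p = 0.00176). Tpm2 had been 1.83-fold above wild type in the mutant with control virus, and its 3 treated hearts lay below all others. Myom2, the M-band protein of fast and heart muscle, was 2.48-fold higher (adjusted p = 0.00128), with 1078, 825 and 1282 against 367 to 458 in wild type. Mybpc2, the fast skeletal myosin binding protein C, is outside this list. It was 3.86-fold lower (adjusted p = 0.00123), with 7.69, 10.2 and 9.53 against 29.6 to 45.9. The thin filament troponin T gene Tnnt2 was 1.61-fold higher (adjusted p = 0.00471) and the light chain gene Myl3, the ubiquitin ligase gene Trim63 and Tnni3 also rose, while the chaperone genes Cryab and Unc45b fell. For Tnni3 (1.40-fold, adjusted p = 0.0383) the call was lost in 14 of 17 other settings, and under quantile normalization its log2 difference was -0.068. With replicate 8 the adjusted p was 0.433 for Tpm1, 0.124 for Tpm2, 0.60 for Tnnt2 and 0.0597 for Myom2 and for Mybpc2.

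Hypertrophy genes, mostly raised in the mutant, included some below wild type in replicates 5 to 7. Of 23, 13 passed above wild type in the mutant with control virus, and in replicates 5 to 7 6 passed below it and 0 above (median -0.53, and -0.043 with replicate 8). Among all genes tested, 19.8% passed above wild type in the mutant with control virus and 2.47% below it in replicates 5 to 7. Acta2, smooth muscle actin, had 126, 151 and 259.5 aligned FPKM in wild type, 739, 924 and 891 in the mutant with control virus and 37.4, 38.4 and 50.0 in replicates 5 to 7. It turned from 4.95-fold above wild type (limma adjusted p = 3.49e-05) to 4.02-fold below it (adjusted p = 0.00149), and replicate 8, at 609.7, was near the mutant. Ankrd1, a stretch-responsive titin partner, had 2554, 2489 and 2661 in wild type, 8029 to 10488 in the mutant with control virus and 1783, 1548 and 1909 in replicates 5 to 7 (1.48-fold lower, adjusted p = 0.0257). Acta1, the skeletal actin of fetal hearts, had 1068, 3419.6 and 809 in wild type and 191, 89.1 and 469 in replicates 5 to 7 (7.13-fold lower, adjusted p = 0.0248). Both Ankrd1 and Acta1 lost the call in 9 of 17 other settings. With replicate 8 the log2 difference of Ankrd1 was 0.026 and that of Acta2 -1.05 (adjusted p = 0.99 and 0.639), and the adjusted p was 0.164 for Acta1 and 0.789 for Uchl1. Uchl1, a ubiquitin hydrolase that also marks nerve and holds the heat shock element, was 2.51-fold lower (adjusted p = 0.0198), with 2.22, 3.85 and 2.07 against 5.34 to 13.2 in wild type and 78.5 to 101 in the mutant with control virus. The actin cross-linker gene Flnc and Cryab made up the 6, of which 1 passed without wild-type replicate 2 and likewise without replicate 3. The natriuretic peptide gene Nppa did not pass: it had 1562, 3338 and 1231 in wild type, 1259.9, 721 and 1850.2 in replicates 5 to 7 and 24577 in replicate 8 (adjusted p = 0.369), having been 19.2-fold above wild type in the mutant with control virus.

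Of 14 smooth muscle and pericyte genes, 2 were higher and 3 lower in replicates 5 to 7, beside 3.15% and 2.47% of all genes tested. Tagln had 39.7, 33.0 and 37.8 aligned FPKM in wild type and 19.7, 24.0 and 22 in replicates 5 to 7 (1.65-fold lower, limma adjusted p = 0.0047). Myh11, the smooth muscle myosin heavy chain, had 16.1, 13.5 and 14.8 in wild type and 8.84, 7.37 and 7.82 after treatment (1.75-fold lower, adjusted p = 0.0156), and it stayed low as in the mutant with control virus (1.89-fold lower). With replicate 8 both had an adjusted p of 0.0597. The smooth muscle markers Myh11, Acta2, Tagln and Cnn1 summed to 182.1 to 313.2 aligned FPKM in wild type and 66.19 to 80.48 in replicates 5 to 7, mostly through Acta2. The 2 higher genes of the list were Abcc9, the sulphonylurea receptor of potassium channels, and Mcam. Whether the share of vessel wall in each heart played a part was not tested.

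**Figure D4:**
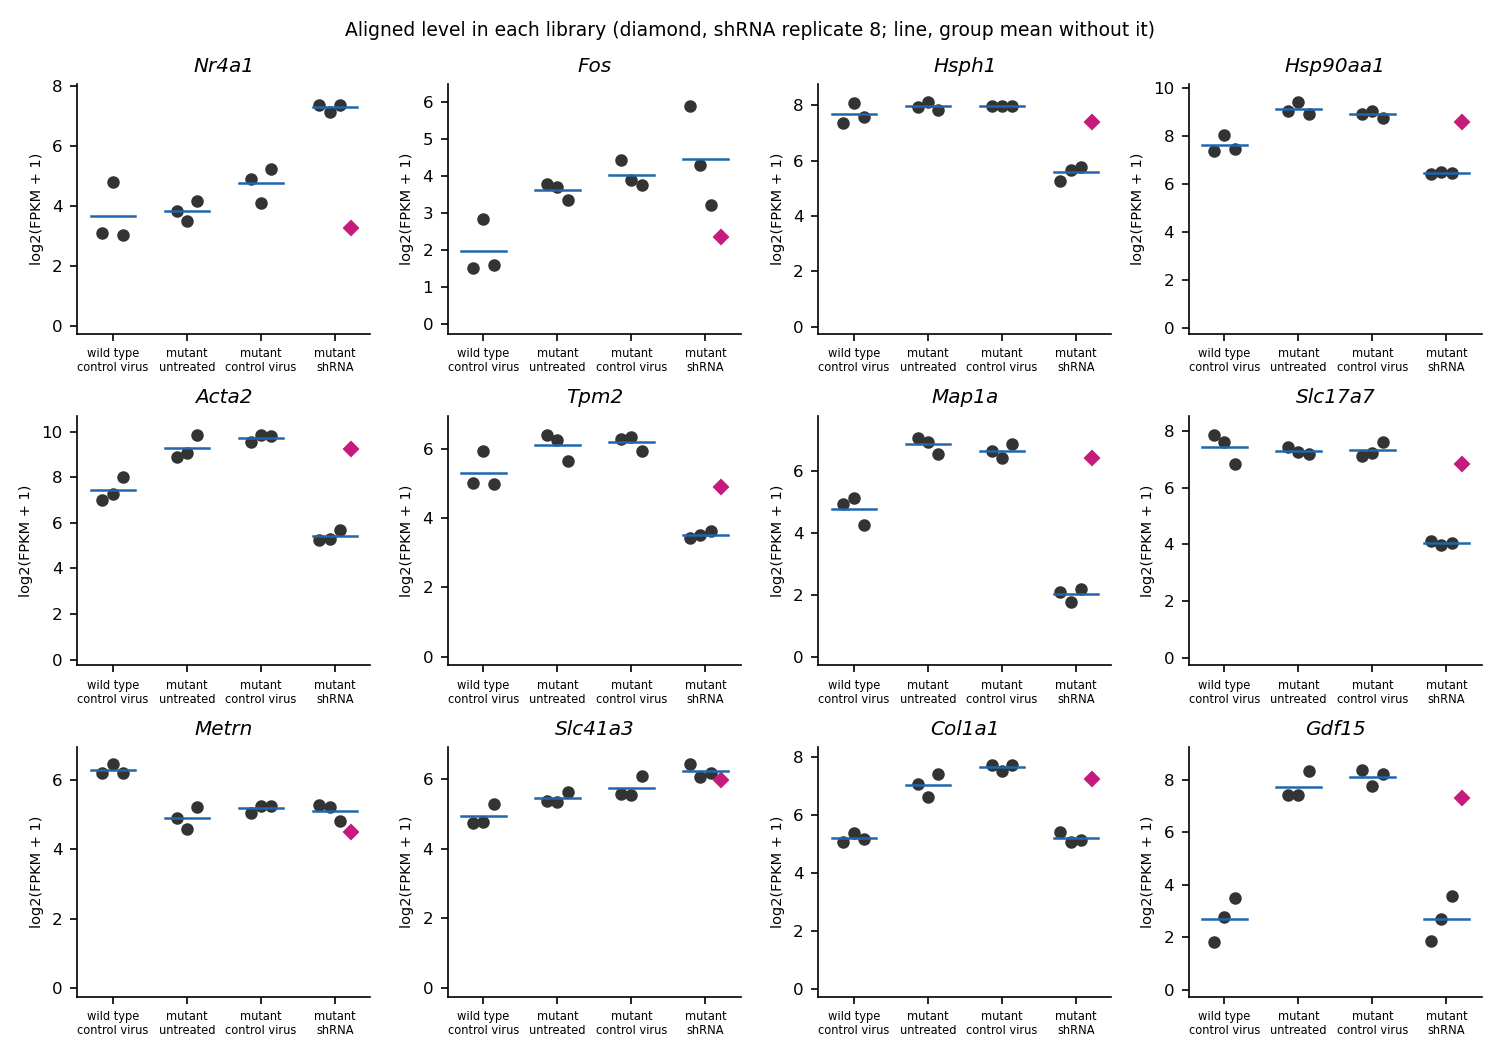
Aligned level (log2 of FPKM + 1, vertical axis) of 12 genes in every library of the 4 groups, with shRNA replicate 8 as a diamond and a line at each group mean, taken without replicate 8. Replicates 5 to 7 sit apart from wild type for Nr4a1, Hsph1, Acta2, Tpm2, Map1a and Slc17a7 while replicate 8 lies toward the mutants or wild type. For Metrn and Slc41a3 all 4 treated hearts lie on the same side of wild type as the mutant with control virus. For Col1a1 and Gdf15 replicates 5 to 7 lie at the wild-type level.

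Some mitochondrial genes, lowered in the mutant, lay slightly above wild type in replicates 5 to 7. Among all genes tested, 3.15% were higher in replicates 5 to 7, and 19.9% were lower in the mutant with control virus. Of 47 genes of oxidative phosphorylation, the chain of complexes that makes ATP, 19 were higher, 0 lower and 28 did not pass (median 0.38, and 0.069 with replicate 8), and 45 had been lower in the mutant with control virus (median -0.71). Ndufa5, of complex I, had 2016, 1969 and 2049 aligned FPKM in wild type, 1193, 1381 and 1278 in the mutant with control virus and 2727, 3095 and 2776 in replicates 5 to 7 (1.42-fold above wild type, limma adjusted p = 0.00927). Sdhb of complex II (1.43-fold, adjusted p = 0.0147) and Atp5c1 of the ATP synthase (1.42-fold, adjusted p = 0.0125) had like differences, and Ndufa12 was 1.44-fold higher (adjusted p = 0.0114). In the TCA cycle 5 of 26 were higher, among them citrate synthase (Cs, 1.34-fold, adjusted p = 0.0149), which had 1458, 1403 and 1356 against 1049, 1082 and 1016 in wild type and 496 in replicate 8. The others were Suclg1, Sdhb, Got2 and the pyruvate carrier gene Mpc2. Fatty acid oxidation had 3 of 35 higher (Eci1, Etfb and Mlycd) and the mitochondrial ribosome 4 of 26 (Mrpl15, Mrpl34, Mrps28 and Mrps30). Cs lost the call in 8 of 17 other settings, Suclg1 in 10, Etfb in 12, Mlycd in 11 and Eci1 in 14. With replicate 8 the log2 differences of Ndufa5, Sdhb, Atp5c1, Ndufa12 and Cs were 0.24, 0.24, 0.21, 0.24 and 0.046, with adjusted p of 0.746 to 0.971. These counts depended on the scaling: of the 47 oxidative phosphorylation genes 0 passed with FPKM as deposited (where the list's median was 0.60), 0 with quantile normalization (0.11) and 0 with male libraries only, 4 with equal FPKM totals (0.18), and 2 to 9 with each library left out. In limma without alignment, 1875 of all genes still had an unadjusted p under 0.05.

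Few other energy genes passed, beside 3.15% higher among all genes tested. Of 26 genes of glycolysis and glycogen 2 were higher, Eno3, the muscle enolase (1.57-fold), and Pfkfb1 (2.36-fold), and of 12 creatine and adenylate genes 2 were higher, among them Ckm, the muscle creatine kinase (1.52-fold). Scd4, a stearoyl-CoA desaturase found in heart, had 3.08, 2.31 and 8.25 in wild type and 19.4, 42.0 and 27.8 in replicates 5 to 7 (5.87-fold higher, adjusted p = 0.00222, and 0.266 with replicate 8).

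Among ion channels, 3 of 31 were higher and 1 lower in replicates 5 to 7, beside 3.15% and 2.47% of all genes tested. Abcc9 had 98.9, 104 and 105 aligned FPKM in wild type, 36.1, 30.5 and 34.9 in the mutant with control virus and 207, 167 and 204 in replicates 5 to 7, so it passed from below wild type to 1.86-fold above it (limma adjusted p = 0.00125). Kcnip2, the subunit of the transient outward potassium current, was 2.04-fold higher (adjusted p = 0.0149). Gja1, the gap junction protein connexin 43, stayed above wild type at 1.44-fold (adjusted p = 0.0162), with 649, 686 and 623 against 440.5 to 465. The atrial potassium channel gene Kcnj3 did not pass: it had 45.9, 44.3 and 41.3 in wild type, 65.0, 45.8 and 53.5 in replicates 5 to 7, 2.12 in replicate 8 and at most 2.28 in the mutant with control virus. Of 25 calcium handling genes, 1 was higher and Jsrp1 was lower, and Atp2a2, the calcium pump SERCA2, had 11313, 9997 and 10634 against 8118 to 8723 in wild type without passing (adjusted p = 0.134). Including replicate 8, the adjusted p was 0.69 for Abcc9, 0.411 for Kcnip2 and 0.101 for Gja1.

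Further genes that overshot downward had been raised in the mutant. Map1a, a microtubule-associated protein, had 29.2, 33.8 and 18.3 aligned FPKM in wild type, 97.7, 84.4 and 115 in the mutant with control virus and 3.29, 2.41 and 3.63 in replicates 5 to 7 (6.69-fold below wild type, limma adjusted p = 4.16e-05). Replicate 8 had 83.9, with the mutants. Clu, the secreted chaperone clusterin, had 1533, 1685 and 1247 in wild type, 2441 to 2910.2 in the mutant with control virus and 537, 309 and 348 in replicates 5 to 7 (3.81-fold lower, adjusted p = 0.000217). Tgfb3, a growth factor of the TGF-beta family, was 2.03-fold lower (adjusted p = 0.000308), with 11.8, 14.1 and 11.5 against 24.9 to 27.4. Mthfd2, a mitochondrial folate enzyme and target of the integrated stress response, had 6.43, 6.83 and 14 in wild type, 32.7 to 63.7 in the mutant with control virus and 1.72, 1.79 and 2.84 in replicates 5 to 7 (3.11-fold lower, adjusted p = 0.0107). For these 4 genes replicates 5 to 7 did not overlap wild type, which held for 728 of the 729 genes that passed and for 30.1% of all genes tested. Adjusted p including replicate 8 was 0.478 for Map1a, 0.394 for Clu, 0.667 for Tgfb3 and 0.725 for Mthfd2.

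The genes named next passed only after treatment and, apart from Hand2, were taken by the size of their difference. Hand2 was taken from the list of cardiac transcription factors. Slc17a7, the vesicular glutamate transporter VGLUT1, had 228, 192 and 111 aligned FPKM in wild type, 138 to 195 in the mutant with control virus, 145 to 171 in untreated mutants and 16.2, 14.6 and 15.5 in replicates 5 to 7. Replicate 8 had 112, at the lower end of wild type. The difference was 10.4-fold (log2 -3.38 ± 0.21 SE, limma adjusted p = 7.58e-06), and the adjusted p was 0.0798 with replicate 8. Cdh22, a cadherin, had 22.3, 22.7 and 12.1 in wild type and 0.805, 0.524 and 1.24 in replicates 5 to 7 (10.6-fold lower, adjusted p = 0.000277). Upward, Ptprn2, a phosphatase-like protein of secretory vesicles, had 0.0956 to 1.38 in wild type and 13.8, 12.5 and 9.17 in replicates 5 to 7 (8.54-fold higher, adjusted p = 5.61e-05). The retinal transporter gene Abca4 (4.72-fold, adjusted p = 0.00125) and Tac1, the precursor of substance P (4.2-fold, adjusted p = 0.00162), had at most 1.1 in wild type and 4.69 to 7.79 in replicates 5 to 7. Hand2, a heart transcription factor, had 37.1, 41.6 and 38.8 in wild type and 58.7, 99.5 and 79.5 in replicates 5 to 7 (1.96-fold higher, adjusted p = 0.0112). Hist2h2bb, 5.76-fold lower (adjusted p = 0.00721), belongs to the histone family, whose close copies and short or absent tails make its polyA counts uncertain. Slc17a7, Cdh22, Ptprn2, Abca4 and Tac1 passed under each setting run without replicate 8. With it, the adjusted p was 0.115 for Cdh22, 0.188 for Ptprn2, 0.131 for Abca4, 0.219 for Tac1, 0.439 for Hand2 and 0.183 for Hist2h2bb.

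Fmr1nb was listed at 0 in all 3 wild-type hearts, so no fold is given. It had 0.484, 0.964 and 0.405 aligned FPKM in the mutant with control virus, 3.31, 3.44 and 3.35 in shRNA replicates 5 to 7 and 0.307 in replicate 8 (limma adjusted p = 8.3e-05 for replicates 5 to 7, and 0.101 with replicate 8). On the Wnt list 2 of 19 genes were higher, beside 3.15% of all genes tested. Both were secreted Wnt antagonists and both were also raised in the mutant with control virus. Wif1 had 2.18, 1.86 and 2.33 in wild type, 7.86 to 17.6 in the mutant with control virus and 19.4, 18.0 and 6.76 in replicates 5 to 7 (4.63-fold higher, adjusted p = 0.0123). Sfrp2 had 1.90, 0.636 and 2.16 in wild type and 6.24, 9.45 and 5.08 in replicates 5 to 7 (3.13-fold higher, adjusted p = 0.0185), below the 10.3 to 15.6 of the mutant with control virus. Rbp4, the retinol carrier, had 3.37, 9.96 and 3.65 in wild type and 0.974, 1.26 and 0.605 in replicates 5 to 7, and stayed 3.14-fold below wild type (adjusted p = 0.0283), a call that held in only 7 of 16 other settings. The adjusted p including replicate 8 was 0.188 for Wif1, 0.0797 for Sfrp2 and 0.115 for Rbp4. Liver markers (Alb, Apoa1, Ttr and Fga), whose part in this was not tested, were highest in wild-type replicate 3, at a sum of 89.61, against at most 15.25 elsewhere.

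Few fibrosis genes passed in replicates 5 to 7, at a share near that of all genes. Among all genes tested, 5.62% passed in replicates 5 to 7, and 19.8% were higher in the mutant with control virus. Of 17 collagens, 17 were higher in the mutant with control virus (median 1.50) and 0 passed in either direction in replicates 5 to 7 (median -0.0033, and 0.31 with replicate 8; 2880 of all genes had an unadjusted p under 0.05 in limma). For 10 of the 17 collagens (58.8%) the 95% interval lay within 1.5-fold of wild type, beside 62.0% of all genes that passed in the mutant. Of 33 matrix genes 33 had been higher (median 1.91), and 1 (Tgfb3) passed, lower, after treatment, with 15 of 33 intervals (45.5%) within 1.5-fold and a median of 0.076 (0.39 with replicate 8). Both shares are below that of all genes. Col1a1, a chain of type I collagen, had 32.8, 41.4 and 35.3 aligned FPKM in wild type, 212, 185 and 212 in the mutant with control virus, 41.6, 33.2 and 34.5 in replicates 5 to 7 and 151 in replicate 8. The 95% interval of its log2 difference from wild type, -0.37 to 0.36, lay within 1.5-fold, after a 5.46-fold difference in the mutant with control virus. Col3a1, the chain of type III collagen, had 51.8, 64.0 and 66.0 in wild type and 91.5, 89.7 and 70.4 in replicates 5 to 7, with no overlap. Its 1.38-fold difference did not pass (adjusted p = 0.0959), and its interval, 0.13 to 0.79, reached past 1.5-fold. Gdf15, a stress cytokine, had 2.56, 5.95 and 10.2 in wild type, 217 to 329.5 in the mutant with control virus and 2.66, 5.43 and 10.9 in replicates 5 to 7. Its interval, -0.95 to 0.96, does not show that the levels are alike within 1.5-fold. Six3, a developmental homeobox factor, had at most 0.0846 in wild type, 25.2 to 30.8 in the mutant with control virus, at most 0.0637 in replicates 5 to 7 and 34.9 in replicate 8.

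Immune lists had no member that passed, apart from mast cell genes. Among all genes tested, 5.62% passed in replicates 5 to 7, and 19.8% were higher in the mutant with control virus. In lists this short a count of 0 is near the share of all genes that passed. Of 24 macrophage markers 22 were higher in the mutant with control virus (median 1.50) and 0 passed in replicates 5 to 7 (median -0.24, and 0.26 with replicate 8), although only 6 of the 23 that differed in the mutant had an interval within 1.5-fold. Fibroblast markers (0 of 17), interferon genes (0 of 31), antigen presentation (0 of 17), inflammatory genes (0 of 21), complement (0 of 16) and nucleic acid sensing (0 of 17) had none either. Their medians ran from -0.25 (complement) to -0.0098 (fibroblast markers). Of members that differed in the mutant, the share with an interval within 1.5-fold was 62.5%, 21.4%, 16.7%, 13.3%, 28.6% and 62.5% in that order. It was 62.0% over all genes, so having none does not show that levels were alike. Summed macrophage markers (Cd68, Csf1r, C1qa, C1qb, Mrc1 and Lyz2) were 367.5 to 492.2 aligned FPKM in replicates 5 to 7, 438.3 to 471 in wild type, 1155 to 1718 in the mutant with control virus and 1534 in replicate 8. Of 8 neutrophil and mast cell markers 3 were higher (median 1.33), beside 3.15% of all genes tested. The mast cell proteases Mcpt4 (1.92, 0.743 and 1.12 in wild type against 6.87, 9.89 and 8.34; 4.2-fold, limma adjusted p = 0.0121), Cma1 (3.19-fold, adjusted p = 0.0149) and Tpsb2 rose, and none of the 3 passed without wild-type replicate 3. With shRNA replicate 8 the adjusted p was 0.233 for Mcpt4, 0.087 for Cma1 and 0.164 for Tpsb2. Small RNA pathway genes, which process hairpins, had 0 of 18 that passed.

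The remaining lists held few or no genes that passed, beside 3.15% higher and 2.47% lower among all genes tested. A list with none was not thereby shown to be at the wild-type level. Stress lists had 2 of 31 higher and 1 lower (Atf3 and Pdia6; Mthfd2) for the unfolded protein and integrated stress responses, 0 higher and 2 lower of 26 for oxidative stress (Txnrd1 and Srxn1), and 1 of 22 higher for p53 targets (Btg2). Cardiac transcription factors had 1 of 23 higher (Hand2) and 1 lower (Six4), and clock genes 1 of 24 higher (Bhlhe40). Energy regulators had 1 of 15 higher (Nr4a1) and autophagy and lysosome genes 1 of 21 (Ctsl). On a list labelled muscle paralogs 2 of 13 were higher (Gpt and Lrrc4b), though the label does not describe these 2 genes. Atrial markers had 1 of 14 lower (Stard10), nerve and Schwann markers 1 of 8 higher (Dbh) and 1 lower (Uchl1), and skeletal muscle markers 2 of 7 higher (Cacna1s and Ckm) and 1 lower (Mybpc2). Cell cycle (0 of 28), endothelial (0 of 20), ribosomal protein (0 of 28), proteasome (0 of 25), lymphocyte (0 of 5), red cell (0 of 5), adipocyte (0 of 5), liver (0 of 8), mesothelial (0 of 9) and sex-linked genes (0 of 8) had none.

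**Figure D5:**
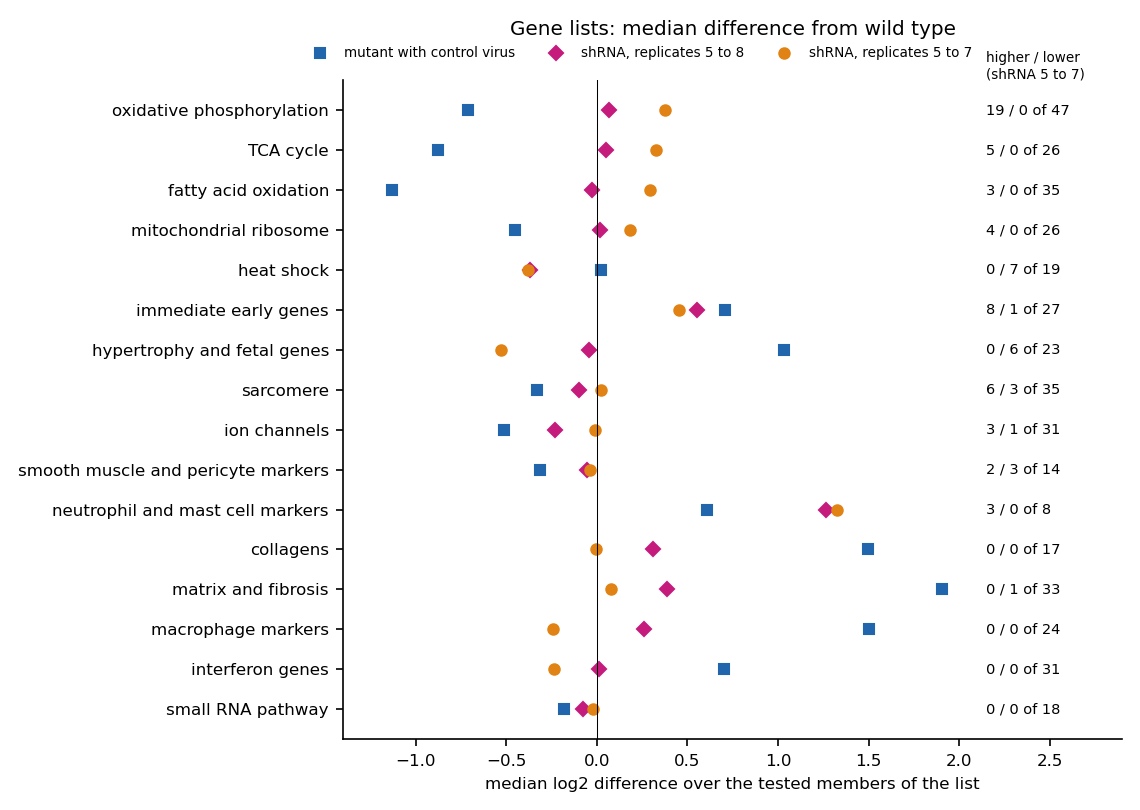
Median log2 difference from wild type (horizontal axis) for 16 gene lists (vertical axis), in the mutant with control virus (squares), all 4 shRNA hearts (diamonds) and shRNA replicates 5 to 7 (circles), with the counts that passed at the right. Collagen and macrophage lists move from 1.50 to -0.0033 and -0.24, and oxidative phosphorylation from -0.71 to 0.38; all 3 series use the same wild-type libraries.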

How the data were processed

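PolyA libraries (100-nt paired reads) were deposited as a table of FPKM values, not read counts. The submitters' processing notes name FastQC 0.11.2, STAR 2.40, Cufflinks 2.2.1, Cuffdiff and mm9; the sources used here give no settings. Each library was divided by 2 to the power of its median log2 shift over the 13875 genes above 0 in all 13 libraries. Differences were tested on log2(aligned FPKM + 1) with limma 3.58.1 in R 4.3.3 (eBayes with trend, 4 groups, two-sided, Benjamini-Hochberg over 12980 genes, adjusted p under 0.05). Folds are on that scale and understate changes of low genes. The same fit was run without shRNA replicate 8. Scripts were tested on simulated data. Members and gene lists were chosen with earlier results of these data known. Genes named are Myl2 and transgene or virus rows; at most 10 higher and 10 lower, by size of difference, of the genes that passed without overlap; up to 5 that stayed and 5 that overshot; up to 4 members of each list by smallest p; and a fixed set of disease genes. Where fewer than 5 passed one way, the 5 smallest p were taken. Alternatives changed scaling, pseudocount (0.1), filter (none or a mean of 5), groups fitted, sex and each library. Promoter sequences are RefSeq's. Results of a few genes are not reported here.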

Additional observations from a re-analysis of the deposited data

Results flagged for a closer look

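Among 116 named genes, 55 had an outlying library in the shRNA group, where the gap of the highest or lowest library to its nearest neighbour is a large part of the group's range of log2(aligned FPKM + 1). Chance alone flags about 1 in 20 groups, but most of these genes were named because they passed with replicate 8 left out, which favours genes where it lies away from the others, so the number flagged is a description. In 53 of the 55 the outlying library was replicate 8, and in Tceal8 and Ctsl it was replicate 5. The gap over the range was 0.99 for the ribosomal RNA row Rn45s; 0.98 for Fmr1nb, Six3 and Xist; and 0.97 for hMyl2, Txnrd1 and Ddx3y. Hsp90aa1 had 0.96. The ratio was 0.95 for Slc17a7 and Rpl3l, 0.94 for Nr4a1, Mrpl15 and Tceal8, 0.93 for Cs, Ndufa12 and Lrrc4b, and 0.92 for Ndufs4. Etfb, Tnnt2 and Hsp90ab1 had 0.91. A ratio of 0.90 was found for Cdh4, Map1a, Acta2, Eno3, Ckm, Postn and Atp2a2, and 0.89 for Gpt and Kcnj3. Tac1, Atp5c1, Ankrd1, Hrc and Idh2 had 0.88, and Tgfb3, Srxn1 and Cacna1s 0.87. For Mthfd2 and Mylk4 it was 0.86. Hspa1l, Got2, Suclg1, Ndufa5, Tpm2, Col1a1 and Tnni3 had 0.85, then Ptprn2, Eci1, Mrps30, Abcc9 and Pln 0.84, and Atf3 and Ctsl 0.83.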

How the results depend on the processing

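Of 92 named genes that passed without shRNA replicate 8, 91 kept their sign under every alternative run without it and 29 kept the call under every one; Tnni3 turned. With it, 81 did not pass (adjusted p of 0.0597 to 0.996) and 78 of these kept their sign, while Ankrd1, Gpt and Txnrd1 had log2 differences of 0.026, -0.24 and 0.018. Without replicate 8, the 729 genes became 218 in FPKM as deposited, 1661 with equal totals, 214 with males of the compared groups, 307 with males of all groups (chosen after seeing the data) and 260 (without wild-type replicate 3) to 543 with each library left out. Genes that stayed (104) became 21, 175 with equal totals and 35 to 89 with a library left out; genes that overshot (309) became 77, 636 and 119 to 244; those within 1.5-fold (3191) became 390 as deposited, 2019 with sex as a covariate and 2062 to 3135. With replicate 8 in, the 11 genes became 6 at a mean FPKM of at least 5, 0 with the compared groups alone, 23 with sex, and 0 (without shRNA replicate 6 or 7 or wild-type replicate 2 or 3, where 949 to 1574 genes had an unadjusted p under 0.05 in limma) to 729. Stayed (7) became 4 as deposited, 11 with equal totals, 11 with sex and 0 to 104; overshot (0) ranged from 0 to 309; within 1.5-fold (1306) became 134, 867, 95 and 120 to 3191. The 3150 genes of the mutant with control virus became 5149 without replicate 8 and 5335 with the compared groups alone (chosen after seeing the data), and 3127 there with the replicate block. For replicate numbers 2 and 3, deviations of the mutant with control virus and of wild type from their group means had correlations of -0.18 and -0.11. These values cannot settle whether the numbers pair the hearts. No paired analysis was possible because shRNA and wild-type hearts share no replicate number. Genes that reversed, none of which passed apart from Tnni3, had these log2 differences: as deposited Col1a1 0.21, Ctgf 0.21 and Cpt2 0.12; with quantile normalization Atp2a2 -0.039, Hrc -0.11, Tcap -0.24, Tnni3 -0.068 and Mylk4 -0.052; with equal totals Myh7 -0.068, Gdf15 -0.15, Postn -0.13, Hrc -0.073, Tcap -0.094 and Mylk4 -0.17; with sex Col1a1 0.081, Timp1 0.0075 and Six3 0.044; with males only Timp1 0.19. With a library left out Ctgf ranged from -0.19 to 0.24, Col1a1 -0.10 to 0.088, Postn -0.11 to 0.22, Myh7 -0.12 to 0.45, Gdf15 -0.43 to 0.42, Tcap -0.060 to 0.20, Mylk4 -0.16 to 0.20 and Timp1 -0.46 to 0.19. Causes were not tested.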
